A study of Mus musculus with 12 samples.

Results

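The genes described here encode 4 connexins, the subunits of gap junctions: Gja1 (Cx43), Gjb2 (Cx26), Gjb5 (Cx31.1) and Gjb6 (Cx30). They are 4 of the 12393 genes that the arrays measured, and they were taken as every probe set that the platform annotation assigns to one of these symbols. That gave 9 probe sets, of which 6 belong to Gja1 and 1 to each of the others. The study compared keratinocytes grown from mouse epidermis with whole skin, and newborn with older skin, on 12 Affymetrix arrays with 1 RNA sample each. A group of 5 primary cultures came from newborn mice, each of cells pooled from 5 mice and grown unpassaged in low-calcium medium for up to 3 days. Of these, 2 were from mice of a mixed C57, DBA and FVB background and 3 from FVB mice. The skin groups were 2 samples of newborn FVB skin and 5 samples of skin from mixed-background mice aged 30 days, so age and strain cannot be told apart within skin. The labels name no mutation, transgene or drug in any group, and whether each skin sample is a separate animal is not stated. The p-values below therefore only set differences against the scatter of these samples, pooled over the groups, and that scatter may be technical.

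Connexins assemble into half-channels in the plasma membrane, and half-channels of neighbouring cells dock to form a gap junction through which ions and small metabolites pass directly between the cells. In the epidermis several connexins are made at once and in different layers. Cx43 is found widely in the epidermis and also in hair follicles, fibroblasts, vessels and muscle, whereas Cx26, Cx30 and Cx31.1 belong to the beta family and are mostly epithelial in skin. Human GJB2 and GJB6 are known for inherited deafness and for disorders in which the epidermis thickens.

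Upstream sequences are printed for all 4 genes because all 4 were lower in culture than in skin. Each is the window of 250 bases before the gene's start in RefSeq (build GRCm38.p6), 5′ to 3′ on the gene's own strand, at chr10:56377050-56377299 (plus strand) for Gja1, chr14:57104703-57104952 (minus strand) for Gjb2, chr4:127358165-127358414 (minus strand) for Gjb5 and chr14:57133612-57133861 (minus strand) for Gjb6. Capitals mark matches to any of 4 motifs searched on both strands: the AP-1 motif TGANTCA, the GC box GGGCGG, the CACCC box CCACCC and the TATA box TATAAA.
Gja1: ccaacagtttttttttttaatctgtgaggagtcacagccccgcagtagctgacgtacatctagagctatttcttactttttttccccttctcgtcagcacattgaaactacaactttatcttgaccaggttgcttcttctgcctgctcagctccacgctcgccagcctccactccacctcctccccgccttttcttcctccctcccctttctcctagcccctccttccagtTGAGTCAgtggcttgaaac
Gjb2: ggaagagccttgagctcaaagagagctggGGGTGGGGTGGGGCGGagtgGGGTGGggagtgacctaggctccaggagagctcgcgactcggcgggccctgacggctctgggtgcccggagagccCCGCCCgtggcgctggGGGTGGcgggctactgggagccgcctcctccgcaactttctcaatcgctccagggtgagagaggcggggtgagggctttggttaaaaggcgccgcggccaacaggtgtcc
Gjb5: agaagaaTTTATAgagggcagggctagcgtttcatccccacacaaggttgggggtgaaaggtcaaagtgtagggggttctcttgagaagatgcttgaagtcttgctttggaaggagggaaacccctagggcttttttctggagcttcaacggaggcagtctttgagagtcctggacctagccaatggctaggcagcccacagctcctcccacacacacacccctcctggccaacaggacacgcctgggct
Gjb6: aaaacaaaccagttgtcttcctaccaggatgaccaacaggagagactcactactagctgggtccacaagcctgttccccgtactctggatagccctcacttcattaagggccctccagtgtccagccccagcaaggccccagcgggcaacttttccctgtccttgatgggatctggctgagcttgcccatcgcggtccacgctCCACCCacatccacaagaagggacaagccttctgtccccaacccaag

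The 4 windows had no motif in common. Gja1 held an AP-1 match, TGAGTCA, from 19 to 13 bases before the start, and AP-1 motifs occurred in 6.749% of all 32851 RefSeq windows of this length. Gjb2 held 2 GC boxes and 4 CACCC boxes, with 2 of the CACCC boxes and a GC box overlapping one another between 221 and 206 bases before the start. GC boxes occurred in 32.742% of all windows and CACCC boxes in 28.075%. The Gjb2 window was also rich in G and C, at 69.2% against a median of 52.4% over all windows. Gjb6 held 1 CACCC box, 47 to 42 bases before the start. In Gjb5 the only match was TTTATA, the TATA box letters on the opposite strand, 243 to 238 bases before the start, and those letters occurred in 12.368% of windows. In the same annotation Gja3, Gjb2 and Gjb6 are consecutive protein-coding genes on chromosome 14, whereas Gja1 has no connexin neighbour on chromosome 10.

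The values are deposited RMA values on a log2 scale, so a difference of 1 is a doubling. They carry no detection call. For each gene the probe set that was brightest on average is described first. Array medians lay between 5.86 and 6.01. The labelled cell type was borne out by the keratinocyte genes: the basal keratin Krt14 read 13.25 to 13.44 in the cultures, and Krt5 read 13.02 to 13.38. The fibroblast, endothelial, skeletal muscle, adipocyte and macrophage lists averaged between 4.43 and 5.99 on every culture array and between 5.96 and 11.50 on every skin array. Other lists stayed higher in culture. The melanocyte list averaged 8.97 and 8.92 in mixed-strain cultures, above newborn skin at 8.37 and 8.39, and 7.32 to 7.42 in FVB cultures. The smooth muscle and pericyte list averaged 6.34 to 6.83 in culture against 7.56 to 7.91 in skin, and the sebaceous gland list 7.38 to 7.56 against 9.54 to 10.38.

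All 4 connexin genes were lower in cultured keratinocytes than in skin. The size of the gap ran from 2.39-fold for Gja1 to 15.8-fold for Gjb2, with Gjb5 at 2.64-fold and Gjb6 at 6.57-fold, against the equally weighted mean of both ages of skin. With limma and Benjamini-Hochberg adjustment over all 22626 probe sets, 8 of the 9 connexin probe sets passed the 0.05 threshold in that direction, as did 18.3% of all probe sets. The same 8 of 9 had arrays that did not overlap between culture and skin, which held in this direction for 11.1% of all probe sets. Skin holds many cell types that the cultures lack, and in bulk samples fewer cells of a type and less RNA per cell cannot be told apart. A sign of RNA quality moved with the groups too. The actin control probe sets were brighter at the 3′ than at the 5′ end by 0.21 and 0.35 in mixed-strain cultures, 0.56 to 0.74 in FVB cultures, 0.99 and 1.14 in newborn skin and 0.67 to 1.74 in 30-day skin. The actin gap separated culture from newborn skin, and the kinds of culture from each other, without overlap. For GAPDH the gap was -0.19 and -0.06 in mixed-strain cultures and 0.04 to 0.33 in FVB cultures. In newborn skin it was 0.26 and 0.34, and in 30-day skin 0.09 to 0.71. The GAPDH gap separated the kinds of culture without overlap, but not culture from newborn skin. The part of RNA quality in the connexin differences was not tested.

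Gjb2 encodes Cx26, a connexin that is scarce in resting skin between the follicles and abundant in hair follicles and in activated epidermis. It read 5.79 and 6.26 in the mixed-strain cultures, 8.17, 8.34 and 8.26 in the FVB cultures, 10.79 and 10.78 in newborn skin, and 11.45, 12.18, 11.91, 12.02 and 12.01 in 30-day skin. The 4 sets of arrays followed each other without overlap, from mixed-strain culture at the bottom to 30-day skin at the top. In 30-day skin Gjb2 stood at the 99.4th percentile of the array's probe sets on average, and in mixed-strain culture at the 51.8th. The log2 difference of culture from skin was -3.98 ± 0.43 (SE, adjusted p = 4.24e-06, limma). Against newborn skin it was -3.42 ± 0.58 and against 30-day skin -4.55 ± 0.44, which are 10.7-fold and 23.4-fold. These contrasts use the same culture arrays.

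Gjb6 encodes Cx30, which can share channels with Cx26. Its values were 4.70 and 4.61 in mixed-strain cultures, 5.21, 4.98 and 4.83 in FVB culture, 6.85 and 6.995 in newborn skin, and 7.38, 8.59, 8.57, 8.30 and 8.36 in 30-day skin. All cultures lay below all skin arrays, and both newborn arrays lay below all 30-day arrays. The difference from skin was -2.72 ± 0.20 (SE, adjusted p = 7.96e-08, limma). It was -2.06 ± 0.27 against newborn skin and -3.37 ± 0.20 against 30-day skin. On the culture arrays Gjb6 stood between the 15.3rd and the 32.5th percentile, in the lower part of each array, and without a measure of background the size of its fold is uncertain.

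Gjb5 encodes Cx31.1, a connexin of stratified epithelia. It read 6.52 and 6.28 in mixed-strain cultures, 6.79, 6.58 and 6.66 in FVB culture, 8.07 and 8.09 in newborn skin, and 7.88, 7.63, 7.68, 7.99 and 8.12 in 30-day skin. Cultures were below skin on every array, while the skin groups overlapped. The difference from skin was -1.40 ± 0.11 (SE, adjusted p = 1.93e-07, limma), with -1.51 ± 0.15 against newborn and -1.29 ± 0.11 against 30-day skin. Gjb5 was the only one of the 4 genes whose gap was not wider against 30-day than against newborn skin, and the gap between those contrasts, -0.22 (95% interval -0.54 to 0.11), did not pass the test.

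Gja1 encodes Cx43. Its brightest probe set, 1437992_x_at, read 10.49 and 10.73 in mixed-strain cultures, 10.38, 10.21 and 10.10 in FVB culture, 11.59 and 11.12 in newborn skin, and 11.89, 11.93, 11.86, 12.09 and 11.88 in 30-day skin. Gja1 was thus bright in culture too, at the 97.7th percentile on average, and its skin arrays all lay higher. The difference from skin was -1.26 ± 0.12 (SE, adjusted p = 1.14e-06, limma), with -0.97 ± 0.16 against newborn and -1.55 ± 0.12 against 30-day skin. The other Gja1 probe sets that passed against skin differed by between -1.28 and -0.71.

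**Figure D1:**
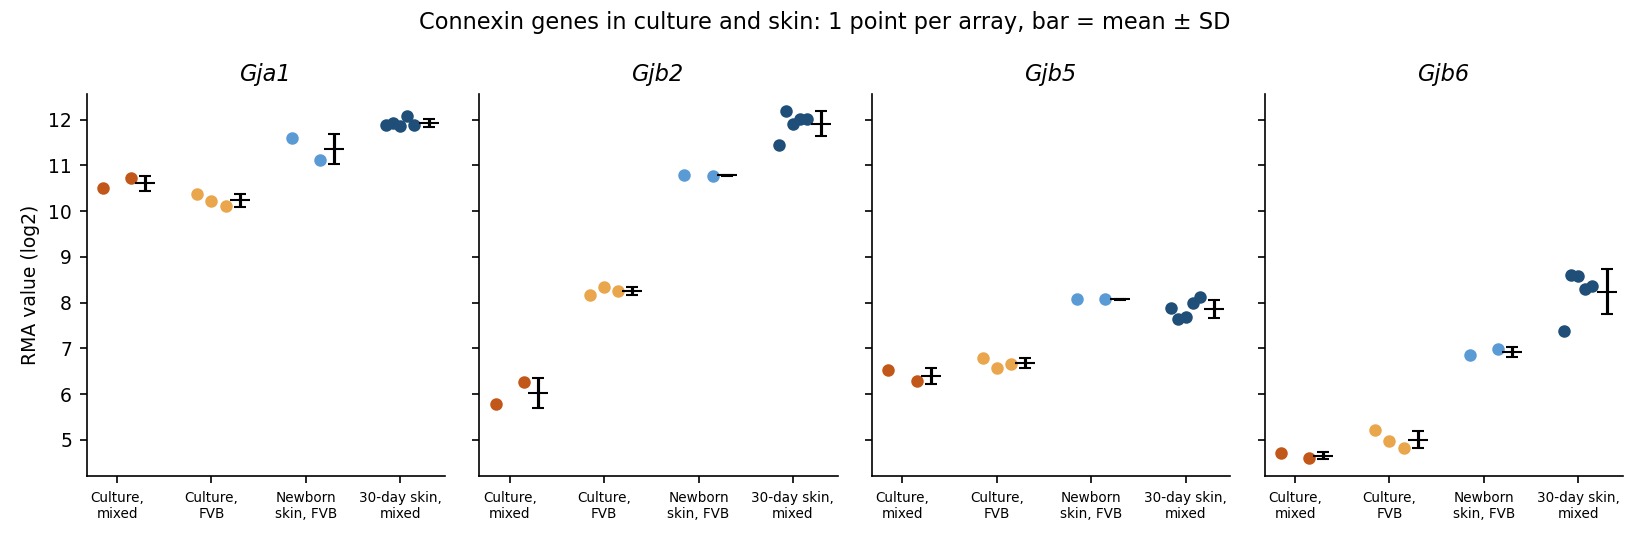
RMA value (log2, vertical axis) of each connexin gene on each of the 12 arrays, by group (horizontal axis: 2 mixed-strain cultures, 3 FVB cultures, 2 newborn skin samples, 5 samples of 30-day skin). Each point is 1 array, and the bar beside the points is the group's mean ± SD. Every culture lies below every skin array for all 4 genes, and Gjb2 separates the kinds of culture most, by 2.23 on average.

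A single Gja1 probe set behaved differently. 1415801_at, which the platform annotation ties to the same transcript accession as 1415800_at, read 8.92 and 8.77 in mixed-strain cultures, 8.31, 7.12 and 7.27 in FVB culture, 8.27 and 8.56 in newborn skin, and 7.63, 10.73, 10.82, 10.38 and 9.93 in 30-day skin. Mixed-strain cultures were above newborn skin, and replicate 1 of 30-day skin was below the other 4 arrays of its group by at least 2.30. Its difference of culture from skin, -1.08 (95% interval -2.22 to 0.06, adjusted p = 0.12, limma), did not pass, and without that array it was -1.36 with an adjusted p of 0.0039. On the same array the actin control probe sets were brighter at the 3′ than at the 5′ end by 1.74, against 0.67 to 0.82 on the other arrays of 30-day skin, and the gap for GAPDH was 0.71 against 0.09 to 0.21. A part of RNA degradation in this value was not tested. 1415800_at read 10.69 on that array and 10.85 to 11.32 on the others of its group. The remaining 4 Gja1 probe sets carry the suffix x_at, which Affymetrix gives to sets with probes that may also match other sequences.

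**Figure D2:**
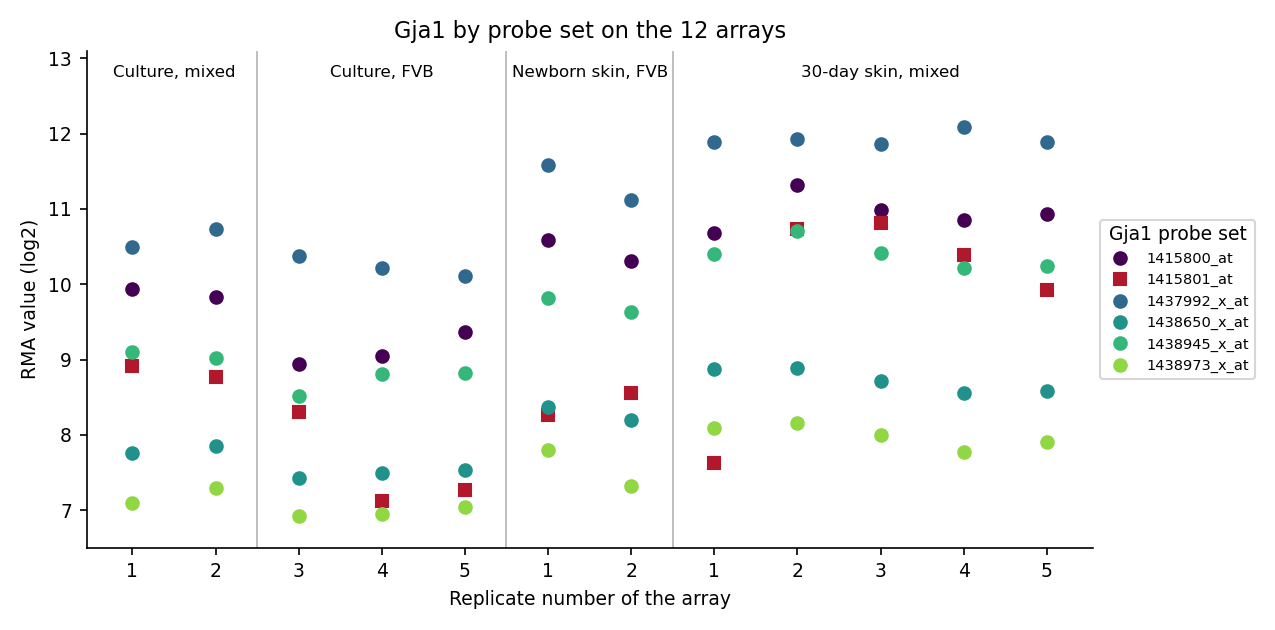
RMA value (log2, vertical axis) of the 6 Gja1 probe sets on each array, with the replicate number within each group on the horizontal axis and grey lines between groups. Red squares are 1415801_at, which falls to 7.63 on replicate 1 of 30-day skin and lies between 9.93 and 10.82 on the other 4 arrays of that group.

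Set against each skin group alone, culture was lower in 8 of 9 connexin probe sets against newborn skin (14.7% of all probe sets) and in 9 of 9 against 30-day skin (18.2%). The arrays of 8 of the 9 did not overlap in either contrast, against 20.0% and 13.9% of all probe sets. The median difference of the 9 probe sets, 6 of them of Gja1, was -0.97 against newborn skin and -1.54 against 30-day skin. Over the 4 genes, each by its brightest probe set, it was -1.78 and -2.46, beside 0.04 and 0.03 over all probe sets. The exception in the first contrast was again 1415801_at, at -0.34 with an interval of -1.89 to 1.21. Without replicate 1 of newborn skin, the probe sets 1415800_at (-0.89, adjusted p = 0.086) and 1438973_x_at (-0.26, adjusted p = 0.35, limma) did not pass either.

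The strain label could be held constant in 2 of these contrasts, using a separate mean for each kind of culture. FVB cultures against newborn skin, both FVB and both newborn, differed by -2.53 ± 0.19 for Gjb2, -1.92 ± 0.28 for Gjb6, -1.40 ± 0.15 for Gjb5 and -1.12 ± 0.14 for Gja1 (SE). All 4 passed, and 8 of 9 connexin probe sets were lower, beside 14.8% of all probe sets. Mixed-strain cultures and 30-day skin shared the mixed label but not age, since the cultures came from newborn mice. They differed by -5.89 ± 0.17 for Gjb2, -3.58 ± 0.25 for Gjb6, -1.46 ± 0.14 for Gjb5 and -1.32 ± 0.13 for Gja1. Again 8 of 9 were lower, beside 16.2% of all probe sets.

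Genes of suprabasal differentiation, which keratinocytes switch on as they leave the basal layer, moved with the connexins. Of 9 measured, 8 were lower in culture than in skin and 0 higher, with Krt77 at -4.60, Krt10 at -4.16 and Calml3 at -4.12. In the hair follicle list 11 of 13 were lower and 1 higher, and over all probe sets 18.3% were lower and 24.3% higher. Fibroblast genes were lower for 9 of 9, endothelial genes for 10 of 10, skeletal muscle genes for 8 of 8 and smooth muscle and pericyte genes for 6 of 8. The keratinocyte identity list went both ways, with 6 of 12 higher, such as Krt14 (1.15) and Cdh1 (1.11), and 3 lower. The part of cell makeup in the connexin differences was not tested. When each array was centred on the keratinocyte identity genes instead, all values in culture moved down by 0.35 relative to skin, and the calls over all probe sets went from 4136 lower and 5491 higher to 12724 and 2337.

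Between newborn and 30-day skin, Gjb6 and Gja1 were higher in the older, mixed-background skin. The rise was 1.32 ± 0.27 for Gjb6 (2.50-fold, adjusted p = 0.0056) and 0.58 ± 0.16 for Gja1 (1.49-fold, adjusted p = 0.033, limma). In all 3 of 9 connexin probe sets rose, 1 of Gjb6 and 2 of Gja1, against 4.75% of all probe sets, and 0 fell. The arrays of 6 of the 9 lay higher in 30-day skin without overlap, against 14.6% of all probe sets. Under the keratinocyte centring Gja1 did not pass (0.45, adjusted p = 0.17, limma). Both calls depended on single arrays. Leaving out a newborn array leaves 1 array for that group, assumed to vary like the others, and the adjusted p of Gjb6 was then 0.077 without replicate 1 and 0.058 without replicate 2. Gja1 at 0.34 did not pass without replicate 2 of newborn skin (adjusted p = 0.47), nor without replicates 2, 4 or 5 of 30-day skin (adjusted p between 0.053 and 0.067). The second called Gja1 probe set, 1438945_x_at at 0.67, was lost without either newborn array, at an adjusted p of 0.072 and 0.21.

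Gjb2 stood 1.13 higher in 30-day skin, with no overlap of arrays, but its 95% interval of -0.13 to 2.39 held 0 and it did not pass (adjusted p = 0.26, limma). That fit takes its spread from all groups with 1 mean for all cultures, and the SD of Gjb2 was 1.23 over the 5 cultures, 0.28 over 30-day skin and 0.01 over newborn skin. With a mean for each kind of culture, a fit added after seeing the data, the same difference had an SE of 0.17, an interval of 0.76 to 1.498 and an adjusted p of 5.33e-04. In that fit 7 of 9 connexin probe sets were higher in 30-day skin, 1 of Gjb2, 1 of Gjb6 and the rest of Gja1, beside 6.90% of all probe sets. Gjb5 differed by -0.22 in both fits and passed in neither.

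In the same comparison 10 of 13 hair follicle genes were higher in the older skin and 0 lower, while 4 of 9 suprabasal genes were lower and 2 higher. Over all probe sets 4.75% were higher and 7.36% lower. Krt1 stood out among the suprabasal genes at -2.65, and Krt77 went the other way at 3.49. Replicate 1 of 30-day skin was the lowest of its group for Gjb2, Gjb6 and Gja1 probe sets 1415800_at and 1415801_at, and is the array with the wider 3′ to 5′ gap. Without it the age difference of Gjb6 was 1.54 (adjusted p = 2.97e-05) and that of 1415801_at was 2.05 (adjusted p = 0.0086), which then passed. Whether age or strain goes with these differences cannot be told apart.

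**Figure D3:**
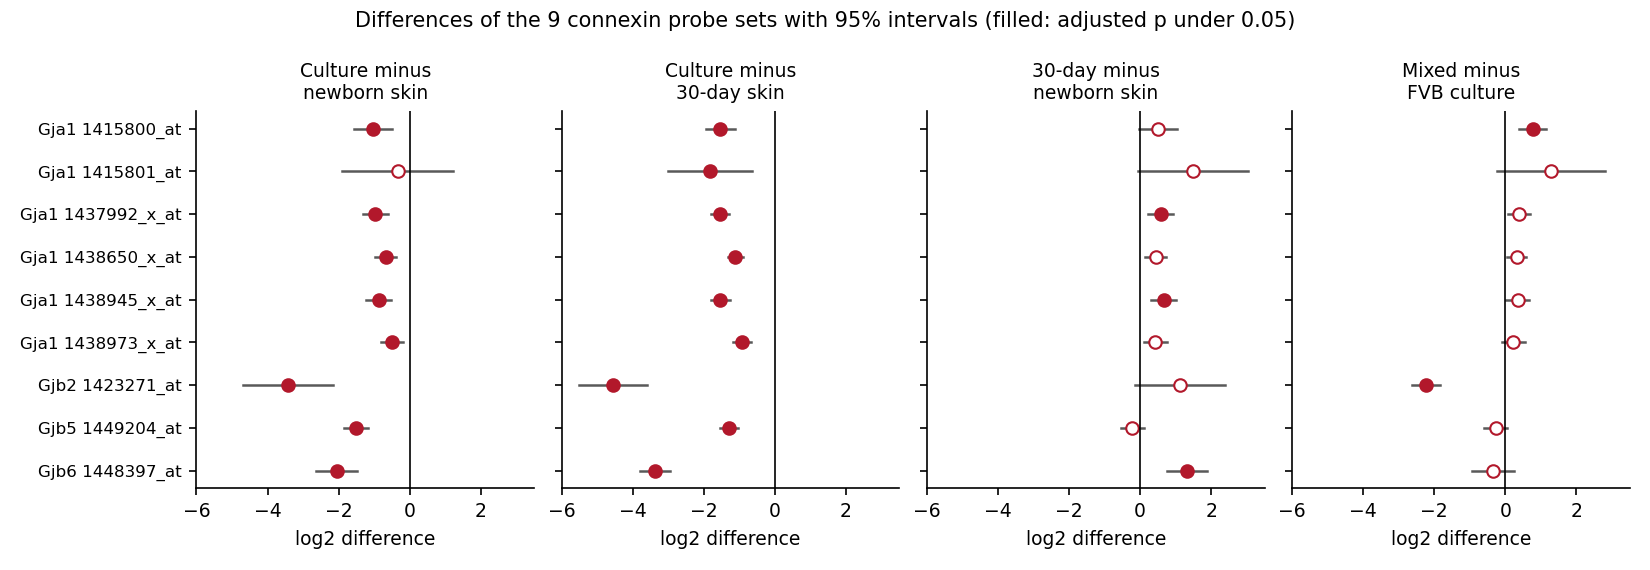
Log2 differences (horizontal axis) of the 9 connexin probe sets with their 95% intervals in 4 contrasts. Filled points passed an adjusted p of 0.05 and open points did not. The contrasts with culture lie left of 0, and in the strain contrast Gjb2 at -2.23 and the Gja1 probe sets lie on opposite sides.

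Within culture, Gjb2 and 1 Gja1 probe set differed by strain, in opposite directions. For Gjb2 the mixed-strain cultures stood 2.23 ± 0.19 (SE) below the FVB cultures, a 4.68-fold gap with an adjusted p of 1.80e-05 (limma). It was 1 of 9 connexin probe sets lower, beside 5.30% of all probe sets. Gjb5 and Gjb6 differed by -0.28 (interval -0.59 to 0.04) and -0.35 (interval -0.95 to 0.25) and did not pass. Gja1 lay on the other side: 1415800_at read 9.94 and 9.83 against 8.93, 9.04 and 9.37, a difference of 0.77 ± 0.18 (adjusted p = 0.016), and was the only one of the 9 that passed as higher, beside 3.91% of all probe sets.

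The other 5 Gja1 probe sets were higher by 0.23 to 1.28 and did not pass. For 1437992_x_at the difference was 0.38 with an interval of 0.07 to 0.69, and under the keratinocyte centring it was 0.57 and passed (adjusted p = 0.033, limma). All 6 Gja1 probe sets were higher, and all of Gjb2, Gjb5 and Gjb6 lower, in mixed-strain cultures without overlap of arrays, and such separation of 2 from 3 arrays occurred in 22.0% and 24.0% of all probe sets. The call of 1415800_at was lost without replicates 1, 2, 3 or 4 of culture in turn, with its adjusted p reaching 0.16. That of Gjb2 was kept without any single array, at an adjusted p of at most 8.72e-04.

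Differentiation and other cell types also differed between these cultures. Krt1 read 6.94 and 7.35 in the mixed-strain cultures and 9.27, 9.49 and 9.56 in the FVB cultures, a difference of -2.29 ± 0.14 (adjusted p = 2.17e-06). Krt10 and Krtdap, 2 further suprabasal genes, differed by -1.17 and -1.09, and these 3 were the called members among 9. Over all probe sets 5.30% were lower. Of the 12 keratinocyte identity genes 1 was lower and 0 higher, namely Trp63 at -0.70 (adjusted p = 0.014, limma). Krt5 and Krt14 differed by -0.12 and -0.17 and did not pass, though the mixed-strain arrays of Krt14 all lay below its FVB arrays.

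Melanocyte genes were higher in the mixed-strain cultures for 5 of 6, beside 3.91% of all probe sets. The pigment enzyme genes Tyrp1 and Dct rose by 2.29 and 2.15, with Tyrp1 at 10.55 and 10.41 against 8.25, 8.01 and 8.33. Fibroblast genes were higher for 3 of 9, including Col1a2 at 1.36, and smooth muscle and pericyte genes for 3 of 8. Over the arrays the suprabasal list averaged 6.73 and 6.70 for the mixed background and 7.31 to 7.49 for FVB. The part of these cells, or of the degree of differentiation, in the strain gap of Gjb2 was not tested. The labels do not say whether strains were cultured together, so strain and culture batch cannot be told apart. The 2 mixed-strain arrays correlated at 0.996, and the FVB cultures with one another at 0.988 to 0.992. Whether the mixed-strain arrays share a source was not tested, and the p-values count them as separate.

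**Figure D4:**
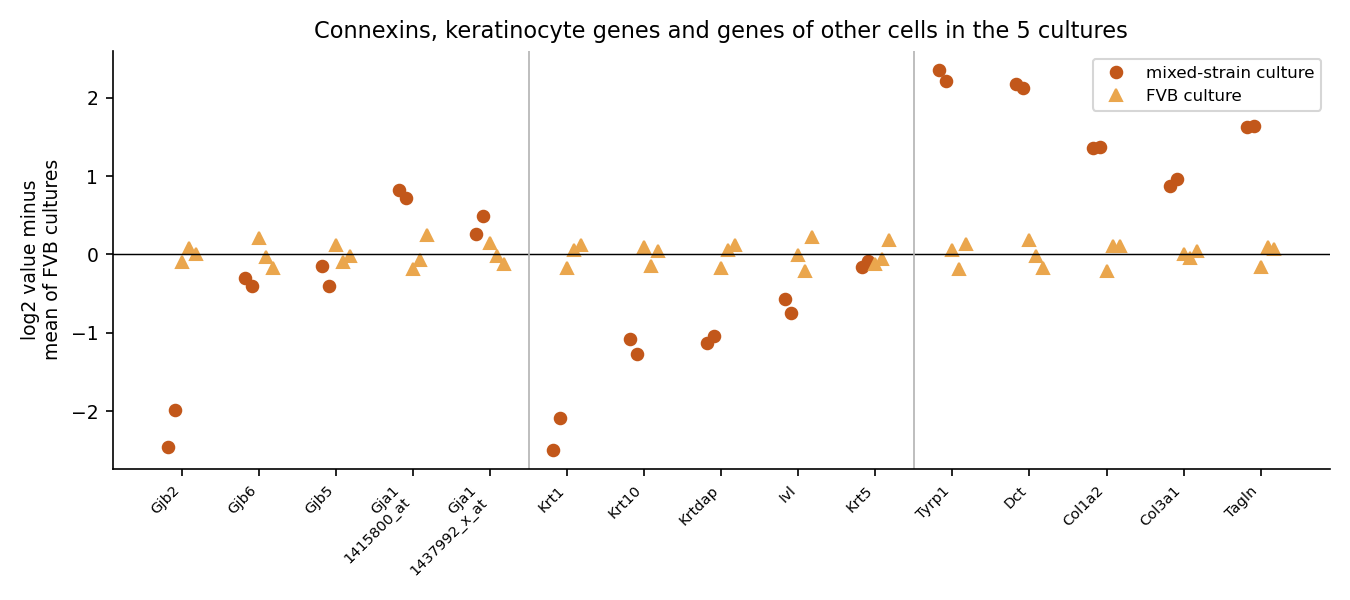
Log2 value minus the mean of the 3 FVB cultures (vertical axis) in the 5 cultures for connexins (left), keratinocyte genes (middle) and genes of melanocytes, fibroblasts and smooth muscle (right). Circles are mixed-strain and triangles FVB cultures. Gjb2 and Krt1 lie below 0 in both mixed-strain cultures, by -2.23 and -2.29 on average, while Tyrp1 and Dct lie above, by 2.29 and 2.15.

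Over the 12 arrays the levels of each connexin could be ordered. For Gjb2 the order was mixed-strain culture, FVB culture, newborn skin and 30-day skin, and only the last pair depended on the fit, as given above. For Gjb6 the difference between the 2 kinds of culture did not pass, though mixed-strain arrays all lay below FVB arrays. Newborn and 30-day skin followed. For Gjb5 neither the kinds of culture nor the skin groups passed. Its mixed-strain arrays all lay below its FVB arrays, while the skin groups overlapped. For Gja1, by 1437992_x_at, the cultures did not pass, and newborn skin lay between them and 30-day skin.

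The genes whose profile over the 12 arrays lay closest to each connexin were found by the root mean square difference after centring each on its mean. Gjb2 lay farthest from its nearest genes, which were Pinlyp at 0.470, Scel, which encodes the cornified envelope protein sciellin, at 0.625, and Pdzrn3 at 0.652. Pinlyp read 5.52 and 5.19 in mixed-strain cultures, 6.88, 6.46 and 6.51 in FVB culture, 9.69 and 9.99 in newborn skin and 9.97 to 11.47 in 30-day skin. Unlike those of Gjb2, its skin groups overlapped. It was picked for its likeness to Gjb2 on these arrays, so a like order of groups is no separate result. Closest to Gjb6 were Cited4 (0.242), S100a1 (0.242) and Igfbp6 (0.289). Closest to Gjb5 were Tlcd1 (0.124), Hadh (0.151) and Camk1d (0.155), and to Gja1 Srms (0.157), Timp2 (0.160) and Sardh (0.173). A gene with a wide range has fewer near neighbours by this measure.

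Of the other connexin and pannexin genes 10 were measured, and in the comparison of culture with skin 3 were lower, 2 higher and 5 did not pass (over all probe sets 18.3% were lower and 24.3% higher). Panx1, which forms channels of a related shape that do not dock between cells, was the one that was clearly higher. It read 7.81 and 8.07 in mixed-strain cultures, 8.03, 8.21 and 8.28 in FVB culture, 6.92 and 7.31 in newborn skin, and 7.27, 7.19, 7.17, 6.82 and 6.93 in 30-day skin. All cultures lay above all skin arrays, by 0.99 ± 0.12 (SE, adjusted p = 9.91e-06, limma).

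Gjc1, which encodes Cx45, a connexin of vascular and other smooth muscle and of embryonic tissue, was high in newborn skin alone, at 6.55 and 6.78. It read 4.66 to 5.09 in the cultures and 4.87 to 5.19 in 30-day skin. The difference of 30-day from newborn skin was -1.67 ± 0.14 (adjusted p = 4.75e-06, limma), and that of culture from newborn skin -1.70 ± 0.14. Gja4, a connexin of arterial endothelium, was lower in culture by 0.58 on the log2 scale, reading 4.57 to 5.49 there against 5.22 to 5.64 in skin. All 10 endothelial genes were lower too, and their part in this was not tested.

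Gja3, the neighbour of Gjb2, was lower by 0.27 on the log2 scale in culture, and Gjd2, a neuronal connexin, higher by 0.25. Gja3 read 4.75 to 5.45 and Gjd2 4.75 to 5.29 over the arrays. Under the keratinocyte centring 6 of the 10 were lower and 1, Panx1, was higher, beside 12724 and 2337 of all 22626 probe sets. With that shift of all values 5 differences turned from above to below 0. Gjd2 was then at -0.11 and did not pass, while Gja5, Gja10 and Gjb1 passed as lower, at -0.28, -0.34 and -0.40. Gja5, Gja10, Gjb1, Gjc3 and Gjd4 lay between 4.34 and 5.69 by their brightest probe set on all arrays, with differences from skin between -0.05 and 0.18 that did not pass without that centring. Between the kinds of culture 0 of the 10 passed.

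Genes for proteins that bind Cx43 or govern its trafficking and turnover moved in both directions. Of 19 measured, 10 were higher in culture than in skin and 4 lower, beside 24.3% and 18.3% of all probe sets. The higher ones were led by Cav2, which encodes a coat protein of caveolae, at 1.83 ± 0.17, Cdh1, which encodes E-cadherin, at 1.11 ± 0.12, and Vcl, which encodes the actin linker vinculin, at 1.09 ± 0.10 (SE). Among the lower ones were Ccn3, a secreted matrix protein that binds Cx43, at -2.88 ± 0.12, Dbn1, the actin-binding protein drebrin, at -1.08 ± 0.13, and Eps15, an endocytic adaptor, at -0.48 ± 0.07. The ubiquitin ligase gene Wwp1 at -0.27 missed the threshold (adjusted p = 0.051, limma). Under the keratinocyte centring the counts became 4 higher and 8 lower, beside 2337 and 12724 of all 22626 probe sets. Cav2, Cdh1 and Vcl kept their direction. Without that centring, 7 were higher and 3 lower against newborn skin alone, beside 3972 and 3337 of all probe sets. Against 30-day skin 9 were higher and 4 lower, beside 5689 and 4109. Some signs differed between the skin groups: Cav1 was at -0.14 against newborn and 1.17 against 30-day skin, and Tubb5 at -0.04 and 0.60.

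Ccn3 gave the widest gap of this list between the skin groups. It read 8.89 and 8.93 in newborn skin, 5.09, 5.61, 5.44, 5.001 and 5.05 in 30-day skin, and 3.99 to 4.35 in the cultures. The difference of 30-day from newborn skin was -3.68 ± 0.16 (adjusted p = 7.35e-09, limma), opposite in sign to that of Gja1. In 30-day against newborn skin 6 of the 19 were lower and 1 higher, against 7.36% and 4.75% of all probe sets. Cav1, the partner of Cav2 in caveolae, was lower in 30-day skin by 1.31 on the log2 scale, and Eps15 was higher by 0.50. The call of Eps15 was lost under the keratinocyte centring (0.38, adjusted p = 0.13, limma). Under it 6 of the 19 were lower and 0 higher, beside 2560 and 595 of all 22626 probe sets. By strain in culture 3 of 19 were higher in the mixed background, namely Cttn (0.52), Nedd4 (0.43) and Vcl (0.37), and 0 lower. Over all probe sets 3.91% were higher and 5.30% lower. With the keratinocyte centring 5 of the 19 were higher, beside 2683 of all 22626 probe sets.

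Kinases that phosphorylate Cx43 were split as well. Of 9 measured, 4 were higher in culture than in skin and 3 lower, beside 24.3% and 18.3% of all probe sets. With the keratinocyte centring 2 were higher and 3 lower, beside 2337 and 12724 of all 22626 probe sets. Prkca (0.24) and Cdk1 (0.047) then no longer passed. Src read 7.12 to 7.76 in the cultures and 6.18 to 6.64 in skin, a difference of 1.03 ± 0.13 (SE), and the protein kinase C genes Prkcd and Prkca were higher by 0.69 and 0.59. Prkaca, the catalytic subunit of protein kinase A, was lower by 0.84 on the log2 scale, Prkce by 0.59 and Mapk7 by 0.30. Akt1 at 0.19 missed the threshold, with -0.19 against newborn and 0.57 against 30-day skin. Cdk1 stood at -0.04 and 0.84 in these contrasts. Against newborn skin alone 3 of the 9 were higher and 1 lower, beside 3972 and 3337 of all probe sets. Against 30-day skin 5 were higher and 3 lower, beside 5689 and 4109. By strain, Prkca and Cdk1 were lower in mixed-strain cultures, at -0.55 and -0.49, but neither passed under the keratinocyte centring, at -0.36 (adjusted p = 0.081) and -0.30 (adjusted p = 0.18, limma).

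**Figure D5:**
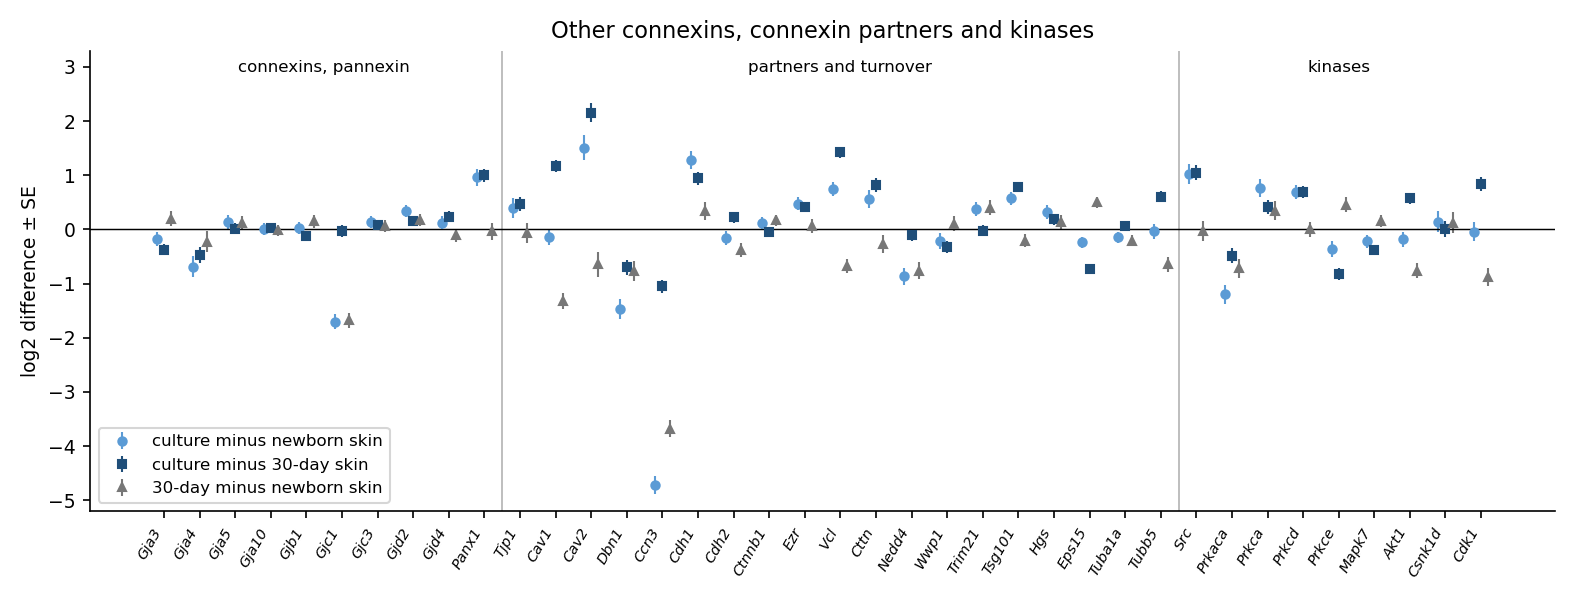
Log2 difference ± SE (vertical axis) of the other measured connexins and pannexin, of genes for connexin partners and turnover, and of kinases (horizontal axis, separated by grey lines). Circles are culture minus newborn skin, squares culture minus 30-day skin and triangles 30-day minus newborn skin. Ccn3 at -4.72 and Gjc1 at -1.70 against newborn skin lie lowest, and Cav2 at 2.16 against 30-day skin lies highest.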

How the data were processed

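Total RNA of 5 keratinocyte cultures and 7 skin samples was hybridised to 1 Affymetrix array each. The authors deposited log2 values made by RMA, per the submitters' processing notes. RMA's version is not given in the sources used here. RMA corrects background, normalises by quantiles and summarises probes, and quantile normalisation assumes similar RNA distributions, which differences in cell makeup can break. Such values have no counts or depth, so the number of arrays limits precision.

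Of 22690 probe sets, 64 controls were left out, and 22626 entered limma (lmFit, then eBayes; version 3.58.1, R 4.3.3; two-sided, Benjamini-Hochberg over all of them, threshold 0.05). All 12 arrays entered a fit with means for cultures, newborn and 30-day skin, without a replicate block. Strain in culture came from a fit with 4 group means. The platform annotation gave 20380 probe sets 1 symbol, 691 several and 1555 none. All 4 connexins matched the RefSeq table by gene identifier. No low-value filter was used.

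The members and gene lists were chosen with earlier results of these data known. Named were every connexin and pannexin probe set, up to 3 called genes per direction of each other list with the largest difference, 1 partner and kinase that missed, and the 3 closest profiles; the text gives part of them, and further markers where values of a comparison rest on them. Lists describe connexin partners, kinases, keratinocytes, suprabasal and activated keratinocytes, hair follicle, fibroblasts, endothelium, smooth and skeletal muscle, adipocytes, macrophages, melanocytes and sebaceous gland; a gene with several probe sets was taken by the brightest. Cdh1 is in the partner and keratinocyte lists. The activated keratins were higher in culture than in skin for 4 of 4, beside 24.3% of all probe sets. Adipocyte (6 of 6), macrophage (8 of 8), melanocyte (4 of 6) and sebaceous genes (4 of 4) were lower, beside 18.3%. Against newborn skin alone, 3 of 4 activated keratins were higher, beside 3972 of all 22626 probe sets. There 2 of 6 melanocyte genes were lower, beside 14.7%, and the counts of adipocyte, macrophage and sebaceous genes were unchanged. Motifs were searched as letters in RefSeq windows (GRCm38.p6).

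The fits were tested on simulated arrays. Figures used Python 3.11.15 and matplotlib 3.10.9. Alternatives covered normalisation, centring, the probe set rule, a filter on the dimmest 40%, variance models, array weights, thresholds, strain, the replicate number, and each array in turn.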

Additional observations from a re-analysis of the deposited data

Results flagged for a closer look

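Of 96 checks of groups of 5 arrays over the connexin, partner and kinase probe sets, 7 found an array far from the others of its group, and chance gives about 1 in 20. Replicate 1 of 30-day skin accounts for 4 of them. On it Gja1 1415801_at read 7.63 against 9.93 to 10.82 on the other arrays, Gjb6 read 7.38 against 8.30 to 8.59, Tsg101, a sorting protein of endosomes, read 7.72 against 8.04 to 8.11, and Cav2 read 8.28 against 7.26 to 7.52. In the cultures, FVB replicate 5 was high for Gja10 at 4.80 against 4.53 to 4.58 and low for Cav1 at 10.71 against 10.89 to 10.96. FVB replicate 4 was low for Dbn1 at 6.01 against 6.46 to 6.51.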

How the results depend on the processing

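The lower level of Gja1, Gjb2, Gjb5 and Gjb6 in culture kept its direction and its call, by the brightest probe set, under every alternative run against both skin groups together and against each alone, including leaving out each array. The keratinocyte centring lowers every culture value against skin, so under it these genes could only stay lower. The replicate numbers did not pair samples, since deviations of same-numbered arrays correlated between -0.28 and 0.20; with the replicate block, culture differed from skin by -4.34 for Gjb2 and -1.21 for Gja1, and of the brightest probe sets it ended only the age call of Gja1 (0.68, adjusted p = 0.064). It could not be used for strain in culture, where each number occurs once. For age, Gja1 also missed the threshold under the keratinocyte centring (0.45), at a threshold of 0.01 (0.58), with strain as a covariate (0.20) and with close arrays averaged (0.57), and without single arrays it ran from 0.34 to 0.81. Gjb2 passed for age with only the skin arrays (1.13, adjusted p = 0.0041), with 4 group means (1.13) and with the strain covariate (3.36), which takes its strain gap from the cultures. That covariate turned Gjb5 to 0.057 and Gja1 1415800_at to -0.27. Gjb6 ran from 1.23 to 1.54 without single arrays. The 3 connexin probe sets higher with age became 5 under renewed quantile normalisation, 6 with array weights, 7 with 4 group means, 1 under the keratinocyte centring or a threshold of 0.01, and 0 to 4 without single arrays. For strain in culture, Gja1 passed as the mean of its probe sets (0.55) and under the keratinocyte centring (0.57), and the 1 probe set higher became 4 under that centring, 3 with array weights, 2 with only the cultures, 0 at 0.01 or with close arrays averaged, and 0 to 2 without single arrays. Mixed-strain cultures alone stood above newborn skin for 1415801_at (0.43). The cause of these changes was not tested.

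The keratinocyte centring shifted all values by -0.42 against newborn skin, -0.29 against 30-day skin, -0.12 for age and 0.19 for strain, with calls lower and higher moving from 3337 and 3972 to 10720 and 1478, from 4109 and 5689 to 10302 and 2924, from 1666 and 1074 to 2560 and 595, and from 1200 and 885 to 446 and 2683. Single-culture contrasts, 4 group means and the averaging of close arrays (correlations 0.995 to 0.996) were chosen after seeing the data, except FVB cultures against newborn and mixed-strain cultures against 30-day skin. The close arrays were the 2 mixed-strain cultures and, in 30-day skin, replicates 2 and 3 and replicates 4 and 5. Whether the arrays of such a pair share a source was not tested, and the other fits count them as separate. Fits with 1 value per gene give no count of probe sets. For culture against all skin, a fit with only the arrays compared uses every array and changes nothing.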
